A study of Saccharomyces cerevisiae with 35 samples.

Results

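The genes described are 31 that encode subunits of the yeast 26S proteasome and RPN4 (YDL020C), the transcription factor that activates them. They were taken by a fixed list of systematic IDs, all of which were found, so that they are 32 of the 6717 genes counted. The subunit genes SEM1 and RPN13 are outside this list and are described with the genes that work with the proteasome. Of the subunit genes, 17 belong to the regulatory particle (11 RPN genes, such as RPN1, YHR027C, and RPN10, YHR200W, and the 6 RPT ATPase genes) and 14 to the core particle (7 alpha-ring genes, such as PRE5, YMR314W, and 7 beta-ring genes, such as PRE1, YER012W).

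The RNA came from 4 diploid strains of Saccharomyces cerevisiae: the lab strain BY4743, which lacks URA3 and LEU2 and part of HIS3, and the wild strains BC187 (a vineyard isolate), NCYC3290 (a West African isolate) and YPS128 (from a North American oak). Each was grown in YPD, a rich glucose medium, at 30 °C, sampled before salt (0 h), and sampled again from the same culture 30 min and 3 h after NaCl was brought to 0.7 M. Every strain and time had 3 replicate cultures, except YPS128 at 30 min with 2, which makes 35 libraries of strand-marked, ribosomal RNA-depleted total RNA. The sources used here do not describe an untreated culture sampled at the later times, so the effect of salt and that of time in culture cannot be told apart.

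The 26S proteasome degrades proteins tagged with ubiquitin. Its regulatory particle binds the tagged protein, removes the ubiquitin, and unfolds the chain with a ring of ATPases, and the core particle cuts the chain inside a barrel of alpha and beta rings. Rpn4 binds a short element upstream of the subunit genes and raises their transcription, and the Rpn4 protein is itself a short-lived substrate of the proteasome, so that the pathway forms a feedback loop. RPN4 transcription is in turn known to be driven by the stress factors Yap1, Pdr1, Pdr3 and Hsf1.

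The Rpn4 element GGTGGCAAA, read on either strand from 250 bases before to 50 bases after the annotated start codon in the RefSeq R64 sequence, was present in 27 of the 31 subunit genes (87.1%), against 72 of all 6001 protein-coding genes (1.20%). The core GTGGCAA, which lies inside the full element, was present in all 31 subunit genes, against 281 of 6001 (4.68%). The elements began between 183 and 84 bases before the start codon (median 120), with 19 in the forward and 8 in the reverse orientation. The sites of genes that the results turn on are shown on the strand of the gene, with the element in capitals (build R64).
RPN1 (chrVIII:164838-164866, minus strand): tgtgttttacGGTGGCAAAaggcgagcac
RPN2 (chrIX:220801-220829, minus strand): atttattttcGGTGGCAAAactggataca
RPN3 (chrV:196843-196871, plus strand): acgaaaaacaTTTGCCACCcaagaaagag
RPN6 (chrIV:286790-286818, minus strand): tggttccaagGGTGGCAAAtgttggtaga
RPT1 (chrXI:174048-174076, plus strand): attaccgaatTTTGCCACCcgaaaactaa
PRE1 (chrV:177683-177711, plus strand): aaatctttacGGTGGCAAAaaataaagaa
PRE2 (chrXVI:732184-732212, plus strand): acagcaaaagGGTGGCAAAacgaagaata
PRE9 (chrVII:761223-761251, plus strand): ttaccctgcaGGTGGCAAAaaatttatag

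RPN8, RPN10, PRE5 and PUP1 held the core but not the full element in this window. Their sites are shown the same way, with the core in capitals. RPN10 and PRE5 are shown because they fell in several strains, and the other pair to complete the set without the full element.
RPN8 (chrXV:817086-817112, minus strand): ggatacctcaGTGGCAAatcgttactc
RPN10 (chrVIII:498888-498914, plus strand): gctgatgttgTTGCCACttcttgttta
PRE5 (chrXIII:901553-901579, plus strand): ctattatagaGTGGCAAaattaaaaat
PUP1 (chrXV:631892-631918, minus strand): acccggccgaGTGGCAAaataccaaaa

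RPN4 held neither the Rpn4 element nor its core within 250 bases of its start. In the 600 bases before its start codon (chrIV:416709-417308, minus strand), both strands were searched for the elements of its known activators. The Yap1 element TTACTAA occurred once (13.7% of all 5999 upstream regions of this length held it), and the heat shock element, bound by Hsf1, at 2 places (1.70% of regions). The Pdr1 and Pdr3 element CCGCGG, the stress response element AGGGG and the Rpn4 element were not among these letters (3.73%, 39.7% and 1.72% of regions held them). Each element was searched in a single form, so a site of another form would have been missed. The stretch that carries the Yap1 element and the farther heat shock element is shown because RPN4 itself is the member that changed most; both elements are in capitals, the Yap1 element first.
RPN4 (chrIV:417034-417092, minus strand): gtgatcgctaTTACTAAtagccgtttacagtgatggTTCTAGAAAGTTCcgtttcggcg

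The libraries held 3629637 to 5866906 counted reads each (median 4732586), and no member had fewer than 147 counts in any library. The deletions checked the strain labels: URA3 and LEU2 had 0 counts in all 9 BY4743 libraries, and 143 to 623 and 209 to 1169 counts in the wild libraries. Scaling mattered for direction. Levels are given as CPM (read counts scaled to library size, with TMM factors), which assumes that most genes do not change. Dividing by library totals alone moved the median log2 fold change of all genes from between -0.03 and 0.09 to between -0.12 and 0.85 across the 8 NaCl comparisons, with the largest shift in YPS128 at 3 h (0.85 under totals, 0.09 under TMM). Changes of the members are therefore relative to the bulk of genes. Counts called under library totals are given without the share of all genes called under that scaling, so they include this shift of the bulk. Counts from the other alternative fits, such as those with cultures left out, also lack the share of all genes called in them. Of the 38 calls of a lower subunit made at 30 min or 3 h, 29 were also negative and 2 were also called under library totals, while of 12 calls of a higher subunit all 12 were positive and 10 were called.

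In the main fit RPN4 was called higher in all 4 strains at both times, with a different course in each. The YPS128 call at 30 min was lost in several other fits, given below. In BY4743 it had 80.5, 67.7 and 83.4 CPM at 0 h, 429, 480 and 470 CPM at 30 min, and 129, 109 and 154 CPM at 3 h. In BC187 it had 70.4, 56 and 61.9 CPM at 0 h, 301, 368 and 313 CPM at 30 min, and 119, 127 and 181 CPM at 3 h. In both strains the 3 times did not overlap and 30 min was highest.

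In NCYC3290, RPN4 had 58.8, 50.4 and 76.7 CPM at 0 h, 145, 139 and 152 CPM at 30 min, and 134, 120 and 159 CPM at 3 h. The libraries of 30 min and 3 h overlapped there and both lay above 0 h. In YPS128 it had 68.3, 46.0 and 55.7 CPM at 0 h, 69.3 and 89.0 CPM at 30 min, and 155, 145 and 203 CPM at 3 h. The lower library at 30 min was thus close to the highest one at 0 h, and 3 h was well above both.

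**Figure D1:**
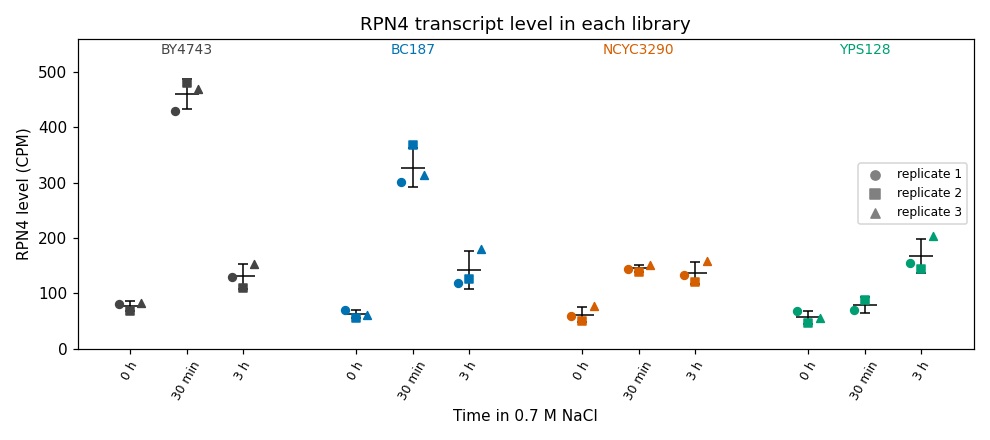
RPN4 level in CPM after TMM scaling (y axis) in each library (points) with mean and SD (bars), for the 4 strains at 0 h, 30 min and 3 h of 0.7 M NaCl. The highest level was at 30 min in BY4743 (459 ± 27.0 CPM) and BC187 (327 ± 35.8 CPM), at about the same level at both salt times in NCYC3290, and at 3 h in YPS128 (168 ± 31.1 CPM).

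At 30 min against 0 h, RPN4 was 5.89-fold higher in BY4743 (log2 fold change 2.56 ± 0.16 SE, adjusted p = 7.63e-14, edgeR quasi-likelihood test with Benjamini-Hochberg adjustment over all 5997 genes tested, as for all adjusted p-values of the responses). It was 5.24-fold higher in BC187 (2.39 ± 0.17, adjusted p = 9.08e-13), 2.39-fold higher in NCYC3290 (1.26 ± 0.16, adjusted p = 4.17e-07) and 1.47-fold higher in YPS128 (0.56 ± 0.19, adjusted p = 0.0406). The YPS128 call was close to the threshold. It was lost under library totals (log2 fold change 0.46, adjusted p = 0.262) and without the replicate block (0.48, adjusted p = 0.117). It was also lost with culture as block (0.48, adjusted p = 0.205), in the separate fit (0.53, adjusted p = 0.347) and without YPS128 replicate 3 (0.47, adjusted p = 0.157). Leaving out YPS128 replicate 2, which leaves 1 library at 30 min, gave 0.22.

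At 3 h against 0 h, RPN4 was 1.71-fold higher in BY4743 (0.78 ± 0.16, adjusted p = 0.000168), 2.27-fold in BC187 (1.18 ± 0.16, adjusted p = 3.51e-07), 2.24-fold in NCYC3290 (1.16 ± 0.16, adjusted p = 3.43e-07) and 2.81-fold in YPS128 (1.49 ± 0.18, adjusted p = 2.29e-08). Between 3 h and 30 min, RPN4 fell by 1.78 on the log2 scale in BY4743 (adjusted p = 3.83e-10) and by 1.21 in BC187 (adjusted p = 2.33e-07). It differed by -0.10 in NCYC3290 (adjusted p = 0.635; 0.50 under library totals, adjusted p = 0.0488) and rose by 0.94 in YPS128 (adjusted p = 0.000204).

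The strains differed in this early response of RPN4. Set against the mean response of the 4 strains at 30 min, the log2 response was 0.87 higher in BY4743 (adjusted p = 1.12e-05), 0.70 higher in BC187 (adjusted p = 0.00428) and 1.13 lower in YPS128 (difference -1.13, adjusted p = 1.56e-05). In NCYC3290 the difference was -0.43 and did not pass the edgeR test (adjusted p = 0.101), while DESeq2 called it (adjusted p = 0.0373). The BC187 call was lost without its replicate 2 (0.56, adjusted p = 0.135) and under library totals (0.68, adjusted p = 0.0783). At 3 h BY4743 was called, with a smaller response than the mean (-0.38, adjusted p = 0.048), and this call was lost when any 1 of its cultures was left out (adjusted p = 0.0749 to 0.206). The 3 h differences of BC187, NCYC3290 and YPS128 were 0.03, 0.01 and 0.34 (adjusted p = 0.954, 1 and 0.102). That of YPS128 was called with all 35 libraries (0.39, adjusted p = 0.0278) and under library totals (0.65, adjusted p = 0.0191).

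The subunit genes moved far less than RPN4. Summed over the 31 subunits, the mean level was 6200, 6511 and 4931 CPM at 0 h, 30 min and 3 h in BY4743, and 5363, 5558 and 4680 CPM in BC187. It was 4728, 4853 and 4365 CPM in NCYC3290, and 5006, 4652 and 5624 CPM in YPS128. Per kb of gene length the subunits stayed close to each other. In any group the highest (PRE1, PRE4 or PUP3) was 2.10 to 2.97 times the lowest (RPN10, RPN11 or RPT2).

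The 0 h culture of replicate 2 had the lowest summed subunit level of its strain in all 4 strains: 5501 CPM against 6510 and 6589 in BY4743, 4672 against 5771 and 5648 in BC187, 3857 against 5153 and 5175 in NCYC3290, and 4441 against 5565 and 5013 in YPS128. Replicate 2 was also lowest at 3 h in all 4 strains (4360, 4410, 3996 and 5036 CPM in BY4743, BC187, NCYC3290 and YPS128), and at 30 min in BC187 and NCYC3290 (5003 and 4295 CPM). At 30 min the median change of the subunits from 0 h was highest in these cultures in every strain. The part of these low levels in the results was not tested, and main counts are also given without these cultures.

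At 30 min the subunits did not move together. In BY4743, 4 of 31 rose and 4 fell (12.9% each), against 33.3% and 29.3% of all genes tested. The highest was RPN3, a lid subunit, with 415, 432 and 423 CPM at 30 min against 269, 292 and 308 CPM at 0 h, groups that did not overlap (log2 fold change 0.53 ± 0.11, adjusted p = 0.000158). RPN6, a lid subunit (0.47), the ATPase RPT3 (0.36) and PUP1, which carries a protease site (0.32), rose as well.

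The lowest in BY4743 was PRE1, a beta-ring subunit, with 79.9, 87.7 and 69.7 CPM at 30 min against 179, 118 and 156 CPM at 0 h, again without overlap (-0.93 ± 0.14, adjusted p = 1.04e-06). The alpha-ring genes SCL1 (-0.45) and PRE5 (-0.30) and the beta-ring gene PUP3 (-0.40) fell too. Under library totals PRE5 was at 0.005, SCL1 at -0.11 and PUP3 at -0.09, none of them called. The 17 regulatory particle genes had 3 higher and 0 lower (median 0.10), and the 14 core particle genes 1 higher and 4 lower (median -0.28). Of all genes 33.3% were higher and 29.3% lower. The falling share of the core genes was close to that of all genes, and the rising share of the regulatory genes was below it. Under library totals 11 subunits rose and 1 fell. Without the cultures of replicate 2, 1 rose and 6 fell, and the share of all genes called in that fit is not given.

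In the wild strains few subunits were called at 30 min. In BC187, 1 rose and 1 fell (3.23% each, against 18.2% and 15.8% of all genes). RPN1, the large scaffold of the regulatory particle base, had 612, 505 and 620 CPM at 30 min against 467, 394 and 464 CPM at 0 h (0.39 ± 0.13, adjusted p = 0.0182). PRE1 had 107, 98.5 and 110 CPM at 30 min against 148, 122 and 140 CPM at 0 h (-0.37 ± 0.14, adjusted p = 0.0355). In both genes the groups did not overlap. Both calls were lost under library totals and when any 1 culture of BC187 was left out (adjusted p = 0.0841 to 0.122 for RPN1 and 0.103 to 0.12 for PRE1), and that of PRE1 also without the replicate block (0.0915) and with culture as block (0.0627).

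In NCYC3290 RPN1 alone was called at 30 min, with 486, 421 and 548 CPM against 376, 305 and 417 CPM at 0 h, groups that did not overlap (0.43 ± 0.13, adjusted p = 0.0123; 16.5% of all genes rose and 10.8% fell). The highest fold change was that of the ATPase RPT4 (0.47, adjusted p = 0.0807) and the lowest that of SCL1 (-0.39, adjusted p = 0.0896). The RPN1 call was absent under library totals and without the cultures of replicate 2.

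In YPS128 at 30 min 0 of 31 subunits were called by edgeR, 2 had an unadjusted p under 0.05 and DESeq2 called 1, against 8.50% of all genes higher and 5.94% lower. The highest fold change was that of PRE1 (146 and 130 CPM at 30 min against 128, 86.7 and 108 CPM at 0 h; 0.40, adjusted p = 0.0775). The lowest was that of SCL1 (-0.44, adjusted p = 0.141). The comparison rested on 2 libraries at 30 min.

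**Figure D2:**
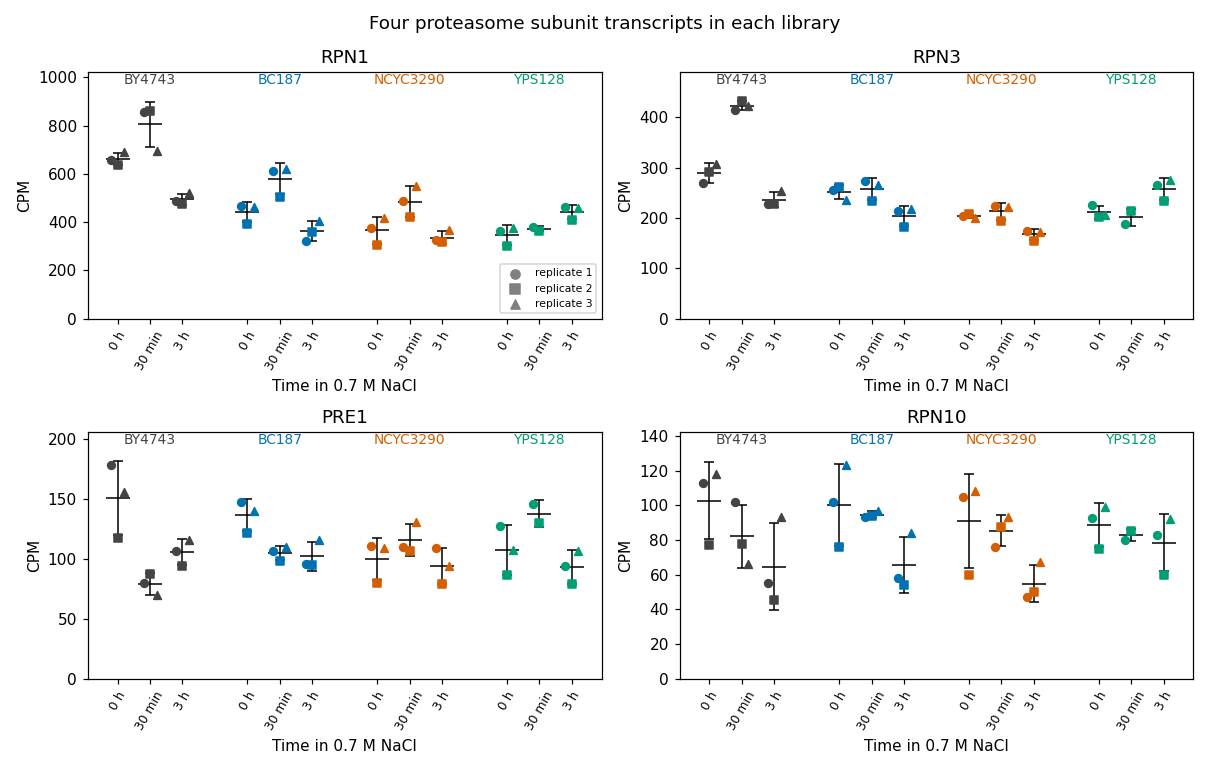
Levels in CPM after TMM scaling (y axes) of RPN1, RPN3, PRE1 and RPN10 in each library (points) with mean and SD (bars), by strain and time. In BY4743 at 30 min RPN3 stood at 423 ± 8.68 CPM and PRE1 at 79.1 ± 9.02 CPM, above and below their 0 h levels of 289 ± 19.3 and 151 ± 31 CPM.

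At 3 h subunit calls ran downward in BY4743, BC187 and NCYC3290 and mostly upward in YPS128. In BY4743, 0 of 31 rose and 14 fell (45.2%), against 23.8% and 20.4% of all genes tested, in BC187 0 rose and 9 fell (29.0%, against 30.6% and 23.9%), and in NCYC3290 1 rose and 9 fell (3.23% and 29.0%, against 32.4% and 27.4%). In YPS128 5 rose and 1 fell (16.1% and 3.23%, against 34.1% and 29.1%). The share of falling subunits was above that of all genes in BY4743 and close to it in BC187 and NCYC3290, and the share of rising subunits was below that of all genes in every strain. The BY4743 count depended on the fit. Of the members, RPN4 counted, 15 were called in the main fit, and 3 without BY4743 replicate 1 or in the separate fit. Under library totals 1 of the 14 subunit calls was made. The share of all genes called in these other fits is not given here.

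For BY4743, BC187, NCYC3290 and YPS128, the median log2 fold change of the 31 subunits at 3 h was -0.29, -0.25, -0.17 and 0.06, beside 0.04, 0.08, 0.07 and 0.09 over all genes. Under library totals the median of the subunits was -0.14, 0.02, 0.41 and 0.82, with 0, 2, 13 and 27 subunits higher and 1, 0, 0 and 0 lower. The direction of the median therefore turned with the scaling in BC187 and NCYC3290. The distance of the subunit median from the median of all genes hardly did: -0.34, -0.33, -0.23 and -0.03 under TMM, and -0.34, -0.32, -0.24 and -0.03 under library totals.

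RPN10, a ubiquitin receptor of the regulatory particle, had the lowest fold change in 3 strains. At 3 h it had 55.5, 45.3 and 93.2 CPM in BY4743 against 113, 77.2 and 118 CPM at 0 h (-0.66 ± 0.19, adjusted p = 0.00489). In BC187 it had 58.3, 54.0 and 83.8 CPM against 102, 75.9 and 123 CPM (-0.60 ± 0.19, adjusted p = 0.00825), and in NCYC3290 47.3, 50.1 and 67.3 CPM against 105, 59.6 and 108 CPM (-0.71 ± 0.19, adjusted p = 0.00216). In each strain the groups overlapped, the 3 h library of replicate 3 being above the 0 h library of replicate 2, but every 3 h library was below the 0 h library of its own culture. In YPS128 the value was -0.18 (adjusted p = 0.485). Under library totals RPN10 had -0.51, -0.34 and -0.13 in BY4743, BC187 and NCYC3290 and was not called (adjusted p = 0.126, 0.305 and 0.692). The BY4743 call was also lost without replicate 1 (-0.50, adjusted p = 0.0752) and in the separate fit (-0.67, adjusted p = 0.0595). That of NCYC3290 was lost without its replicate 1 (-0.47, adjusted p = 0.0864).

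PRE5, an alpha-ring subunit, was the one subunit called lower at 3 h in all 4 strains. It had 103, 76.9 and 117 CPM in BY4743 against 163, 123 and 163 CPM at 0 h (-0.58 ± 0.11, adjusted p = 0.000105). In BC187 it had 103, 94.8 and 111 CPM against 151, 134 and 148 CPM (-0.47 ± 0.11, adjusted p = 0.000773). These groups did not overlap. In NCYC3290 it had 93.6, 81.3 and 97.7 CPM against 137, 104 and 120 CPM (-0.39 ± 0.11, adjusted p = 0.0045), and in YPS128 118, 90.7 and 115 CPM against 155, 120 and 138 CPM (-0.34 ± 0.13, adjusted p = 0.0238). Here too the groups did not overlap. Under library totals PRE5 was called in BY4743 alone (-0.43, adjusted p = 0.0415), and its value was positive in NCYC3290 (0.20) and YPS128 (0.42, adjusted p = 0.0506). The YPS128 call of PRE5 was also lost without the replicate block (adjusted p = 0.0608), in the separate fit (0.197) and without replicate 1 (0.0692) or 2 (0.133), either of which leaves 1 library at 3 h.

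Another 4 subunits fell in BY4743, BC187 and NCYC3290 but not in YPS128 by this test: RPN10 (above), RPN3, the ATPase RPT6 and PRE2, which carries the main protease site. PRE2 values were -0.35, -0.36 and -0.36 in the 3 strains. In NCYC3290, 7 of the 10 subunit calls, those of RPN3, RPT6 and PRE2 included, had the other sign under library totals. At the other end, the highest value at 3 h was -0.05 for RPN6 in BY4743 (adjusted p = 0.855) and 0.20 for RPN5 in BC187 (adjusted p = 0.433), neither called. The one subunit that rose in NCYC3290 was RPN2, the other large scaffold of the regulatory particle, with 518, 567 and 621 CPM at 3 h against 455, 389 and 511 CPM at 0 h (0.35 ± 0.14, adjusted p = 0.0368). It was lost when any 1 culture of NCYC3290 was left out (adjusted p = 0.0511 to 0.29) and without the replicate block (0.0627).

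In YPS128 the 5 rising subunits at 3 h were all of the regulatory particle, a share of its 17 genes below the 34.1% of all genes that rose. The split depended on the threshold. The core genes PRE4 (0.35, adjusted p = 0.0598) and PUP1 (0.28, adjusted p = 0.0826) were just outside it, as was RPN3 of the regulatory particle (0.28, adjusted p = 0.0514). RPN2 had 698, 562 and 667 CPM at 3 h against 442, 394 and 411 CPM at 0 h, without overlap (0.65 ± 0.16, adjusted p = 0.000861). RPN5 (0.56) and RPN6 (0.49), lid subunits, the ATPase RPT4 (0.52) and RPN1 (0.41) rose as well. The medians in YPS128 were 0.14 for the 17 regulatory particle genes and 0.03 for the 14 core particle genes. Replicate 3 of YPS128 at 3 h did not enter this fit, and it stood within or above the range of its group for these genes. Without the cultures of replicate 2, which leaves 1 YPS128 library at 3 h, 1 subunit rose and 0 fell.

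**Figure D3:**
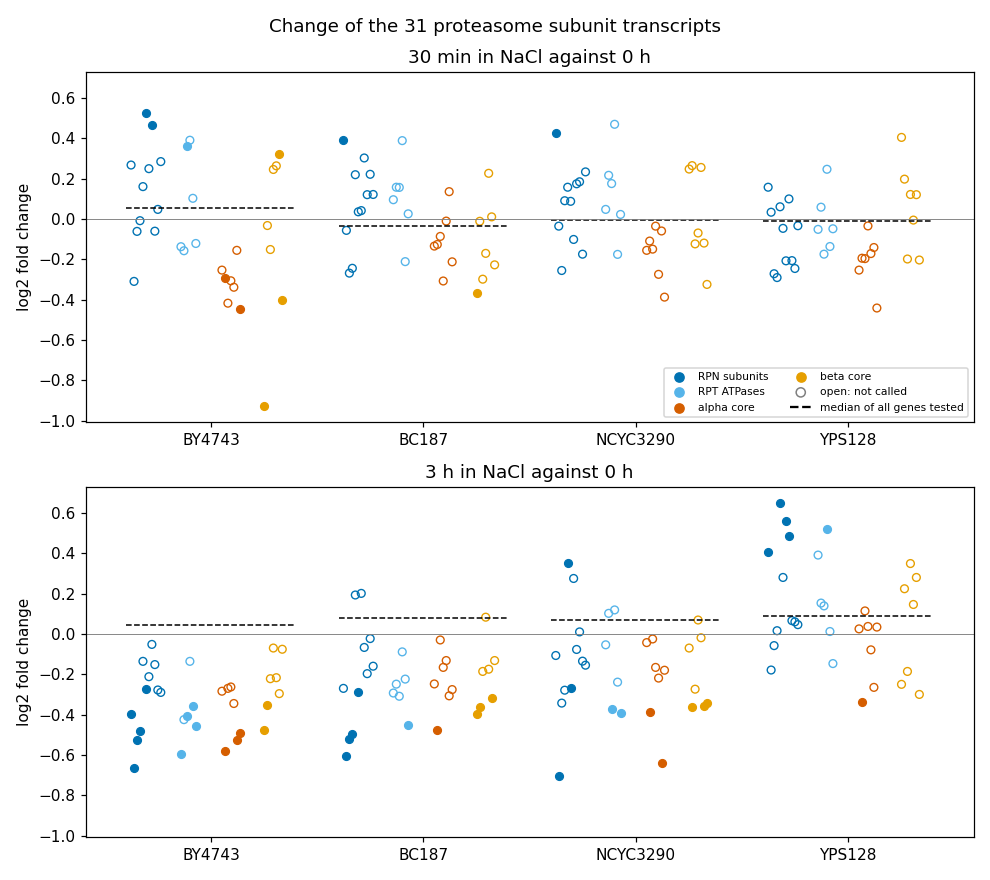
Log2 fold change against 0 h (y axis) of each of the 31 subunit genes (points) by class and strain, at 30 min (top) and 3 h (bottom), with called genes filled and the median of all genes tested as a dashed line. At 3 h most points of BY4743, BC187 and NCYC3290 lay below the dashed line under the TMM scaling used here. Under library totals the subunit median at 3 h was positive in BC187, NCYC3290 and YPS128.

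PRE9, the only core subunit known to be dispensable for growth, was not called in any NaCl comparison. In BY4743 it was just outside the threshold at 30 min (-0.34, adjusted p = 0.0502) and at 3 h (-0.34, adjusted p = 0.0624). Its values in the other strains lay between -0.28 and -0.01.

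Between 3 h and 30 min more subunits were called lower than higher in BY4743, BC187 and NCYC3290. In BY4743, 2 of 31 rose and 13 fell (against 23.5% and 25.6% of all genes), in BC187 0 rose and 11 fell (28.6% and 23.8%), in NCYC3290 0 rose and 11 fell (27.6% and 27.1%), and in YPS128 3 rose and 1 fell (29.6% and 26.3%). The subunit medians were -0.33, -0.28, -0.17 and 0.22. Under library totals 0 subunits rose in BY4743, 3 rose and 1 fell in BC187, and 12 in NCYC3290 and 29 in YPS128 rose and 0 fell, so that the direction in NCYC3290 turned with the scaling (9 of its 11 calls had the other sign).

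RPN3 led the fall in BY4743, with 228, 227 and 254 CPM at 3 h against 415, 432 and 423 CPM at 30 min (-0.80, adjusted p = 1.05e-06). PRE1 (0.45, adjusted p = 0.00752) and PUP3 (0.33, adjusted p = 0.033) rose there. The PUP3 call was lost under library totals (adjusted p = 0.436), without the replicate block (0.0678), with all 35 libraries (0.0589) and in the separate fit (0.283). It was also lost without replicate 1 (0.22) or 3 (0.278). That of PRE1 was lost under library totals (0.248), in the separate fit (0.135) and without replicate 3 (0.0763). In BC187 RPN1 was lowest (323, 360 and 405 CPM at 3 h against 612, 505 and 620 CPM at 30 min; -0.66, adjusted p = 8.58e-05) and PRE4 highest (0.26, adjusted p = 0.142). In NCYC3290 RPN10 was lowest (-0.67, adjusted p = 0.00402) and RPN5 highest (0.38, adjusted p = 0.13).

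In YPS128 the direction of PRE1 was the other way round from BY4743: it had 93.9, 79.1 and 107 CPM at 3 h against 146 and 130 CPM at 30 min (-0.65, adjusted p = 0.00156). Under library totals its value there was 0.22 (adjusted p = 0.445). RPN5 was highest, with 325, 274 and 359 CPM at 3 h against 163 and 190 CPM at 30 min (0.77, adjusted p = 0.0134). Its call was lost in the separate fit (0.75, adjusted p = 0.0566). Without YPS128 replicate 1, which leaves 1 library at each salt time, its value was 0.52. RPN2 and RPN3 rose as well (0.59 and 0.33).

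Few subunits responded differently in a strain from the mean of the strains. At 30 min in BY4743 RPN3 was higher (0.38, adjusted p = 0.00236) and PRE1 lower (-0.77, adjusted p = 7.65e-06), against 23.0% of all genes higher and 22.9% lower. In YPS128 PRE1 was higher (0.57, adjusted p = 0.00457), against 4.22% higher and 6.10% lower. In BC187 0 subunits were called at 30 min and 0 at 3 h, and RPN4 was the one member called at 30 min, against 1.20% of all genes higher. In NCYC3290 0 were called at either time. Counts at an unadjusted p under 0.05 were 0 and 0 in BC187 and 1 and 0 in NCYC3290, and DESeq2 called the same numbers. PRE1, with opposite calls in BY4743 and YPS128, thus had the widest spread of log2 fold changes among the subunits at 30 min, with -0.93 (BY4743) and -0.37 (BC187) on one side and 0.25 (NCYC3290) and 0.40 (YPS128) on the other. Under library totals the higher response in YPS128 was 0.40 and was not called (adjusted p = 0.183).

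At 3 h the 3 called subunits in BY4743 were all lower than the mean response: the ATPase RPT1 (-0.46, adjusted p = 0.0411), RPN2 (-0.40, adjusted p = 0.0218) and RPN1 (-0.31, adjusted p = 0.047), against 11.9% of all genes. The 7 called in YPS128 were all higher, against 11.7% of all genes: RPT1 (0.53, adjusted p = 0.0277), RPN1 (0.50), PUP1 (0.45), PRE2 (0.44), RPN3 (0.42), RPN2 (0.39) and RPT3 (0.38). RPT1 had 126, 113 and 186 CPM at 3 h in BY4743 against 226, 180 and 240 CPM at 0 h. In YPS128 it had 187, 163 and 213 CPM against 149, 123 and 163 CPM. The RPT1 calls in BY4743 and YPS128 were lost without the replicate block (adjusted p = 0.132 and 0.121) and with culture as block (0.0733 and 0.0763). That of BY4743 was also lost without its replicate 1 (0.246) or 2 (0.0874), and that of YPS128 without its replicate 3 (0.0589). With any 1 culture of BY4743 or all cultures of replicate 2 left out, 0 to 2 members were called in BY4743, against 4 with all cultures, and the same for YPS128 gave 1 to 4, against 7.

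RPN4 and the subunits can be set side by side for each culture, although libraries of 1 culture at different times deviated together (correlation over 0.1) in only 19 of 34 pairs. In log2 CPM minus the 0 h library of the same culture, RPN4 changed at 30 min by 2.41, 2.82 and 2.49 in BY4743, while the median of the 31 subunits changed by -0.05, 0.29 and -0.38. In BC187 RPN4 changed by 2.09, 2.71 and 2.33 and the subunit median by -0.03, 0.09 and 0.00. Large changes of RPN4 mRNA thus stood beside subunit medians on either side of 0.

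In NCYC3290 at 30 min RPN4 changed by 1.29, 1.46 and 0.98 and the subunit median by -0.13, 0.13 and 0.00. In YPS128 the 2 cultures differed for RPN4 (0.02 and 0.94), and their subunit medians were -0.31 and 0.10. At 3 h the subunit median was below 0 in every culture of BY4743 (-0.45, -0.38 and -0.28), BC187 (-0.41, -0.15 and -0.16) and NCYC3290 (-0.29, -0.08 and -0.19). It was -0.11, 0.14 and 0.17 in YPS128. RPN4 was above its 0 h level in every one of these 12 cultures, by 0.68 to 1.86.

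**Figure D4:**
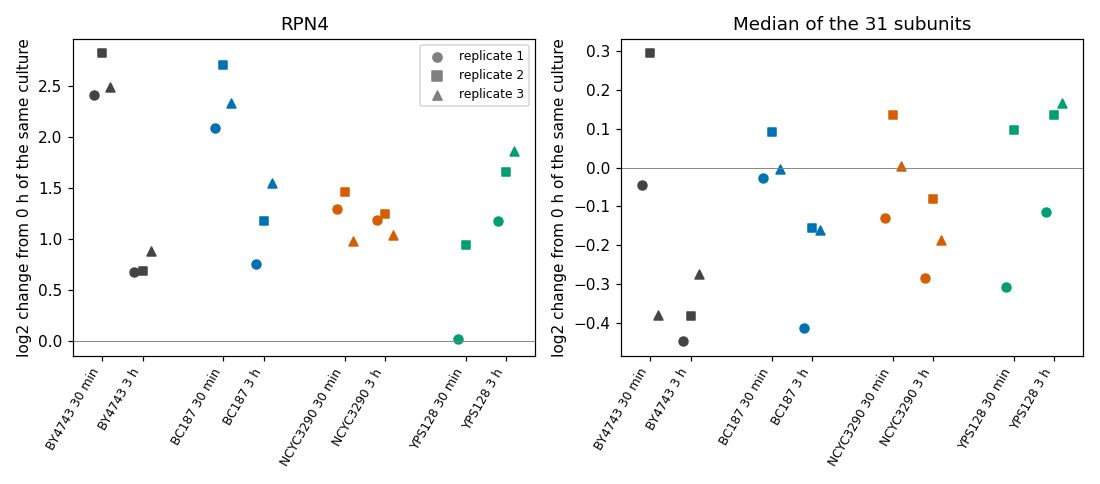
Change in log2 CPM (prior count 2) from the 0 h library of the same culture (y axes) for RPN4 (left) and for the median of the 31 subunits (right), with 1 point per culture at 30 min and 3 h in each strain. RPN4 lay at or above 0 in every culture (0.02 to 2.82), while the subunit medians lay between -0.45 and 0.29; under library totals the subunit median fold change at 3 h was positive in BC187, NCYC3290 and YPS128.

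Before salt, the lab strain had the highest mean summed subunit level (6200 CPM). Its replicate 2 (5501 CPM) was below replicates 1 and 3 of BC187 (5771 and 5648 CPM). Against the mean of the 4 strains at 0 h (edgeR on the 12 unstressed libraries, 5644 genes tested), 23 of 31 subunits were higher and 0 lower in BY4743 (74.2%, against 25.0% of all genes higher and 24.6% lower). In BC187 4 were higher and 1 lower (13.7% and 16.5% of all genes), in NCYC3290 0 higher and 18 lower (58.1%, against 15.1% and 14.4%), and in YPS128 1 higher and 8 lower (25.8%, against 22.8% and 17.2%). The subunit medians were 0.18, 0.03, -0.18 and -0.07, beside 0.00, -0.01, 0.00 and 0.01 over all genes.

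RPN1 differed most in both BY4743 and YPS128. It had 657, 638 and 690 CPM in BY4743, 467, 394 and 464 CPM in BC187, 376, 305 and 417 CPM in NCYC3290 and 364, 300 and 377 CPM in YPS128. The BY4743 libraries lay above all the others (0.61 ± 0.05 against the mean of strains, adjusted p = 3.92e-11), and the YPS128 and NCYC3290 libraries overlapped (-0.34, adjusted p = 1.19e-05, and -0.27, adjusted p = 0.000459). All 6 RPT genes were higher in BY4743, among them RPT1 (0.40).

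In BC187 the largest called difference was RPN6 (217, 139 and 217 CPM; 0.20, adjusted p = 0.00967), and PRE9 was the one lower subunit (-0.16, adjusted p = 0.0339), while PRE9 was higher in BY4743 (0.27, adjusted p = 0.000107). In NCYC3290 PRE1 differed most (111, 79.9 and 109 CPM; -0.29, adjusted p = 0.00035). RPN9, a lid subunit, was the one higher subunit in YPS128 (0.16, adjusted p = 0.0245). RPN4 itself was higher in BY4743 (0.28, adjusted p = 0.00105) and lower in YPS128 (-0.18, adjusted p = 0.0499), with -0.05 in both BC187 and NCYC3290 (adjusted p = 0.645 and 0.629). The RPN4 call in YPS128 was lost under DESeq2 (adjusted p = 0.0904), with no filter (0.0523), without the replicate block (0.325), in the fit to all time points (0.22) and without replicate 2 (0.156) or 3 (0.306). The RPN4 call in BY4743 was lost without the replicate block (adjusted p = 0.0801).

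**Figure D5:**
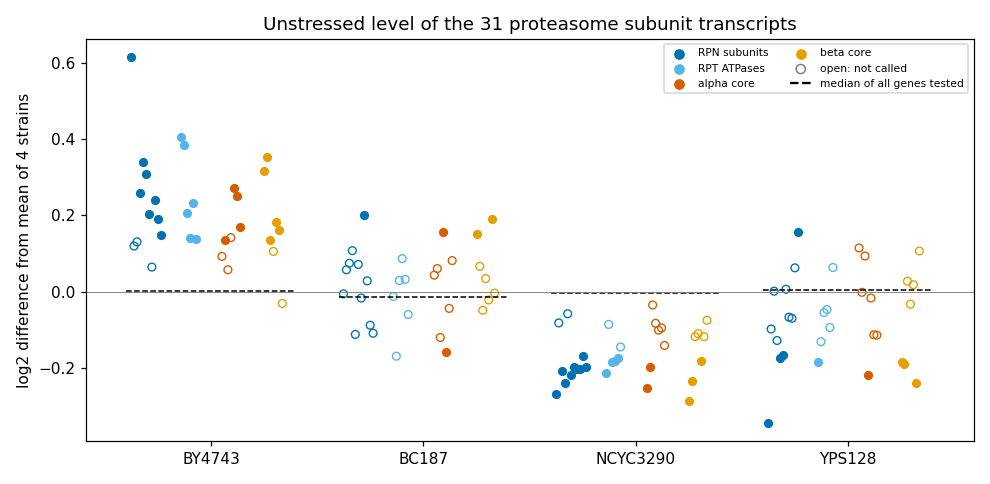
Log2 level at 0 h minus the mean of the 4 strains (y axis) for the 31 subunit genes (points) in each strain, with called genes filled. The subunits of BY4743 lay between -0.03 and 0.61 and those of NCYC3290 between -0.29 and -0.03; 23 and 18 of them were called.

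The number of unstressed calls depended on the fit. Without the replicate block 7, 0, 0 and 1 of the 32 members were called in BY4743, BC187, NCYC3290 and YPS128, against 24, 5, 18 and 10 with it. Under library totals 30, 4, 0 and 0 subunits were higher and 0, 0, 6 and 23 lower. Without the cultures of replicate 2, 5 members were called in NCYC3290. All reads were aligned to the genome of S288c, the parent of the lab strain, so a lower level in a wild strain and poorer alignment of its reads cannot be told apart; every 100-base window of each member was unique in that genome.

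Among the genes that work with the proteasome, 88 calls of a higher and 22 of a lower level were made. These are pooled over the lists below and the 8 NaCl comparisons, so they are not a share. In single comparisons, 8.50 to 34.1% of all genes rose and 5.94 to 29.3% fell. Under library totals 88 of the higher and 19 of the lower calls kept their sign, and 81 and 8 were called. UBI4, the stress-induced polyubiquitin gene, rose in all 4 strains at both times. Of its 100-base windows 90.4% were unique in the genome, so its level is less certain than those of the members. In YPS128 it had 30.9, 33.3 and 30.1 CPM at 0 h, 93.3 and 133 CPM at 30 min, and 794, 609 and 855 CPM at 3 h (log2 fold changes 1.85 and 4.44, adjusted p = 0.00367 and 1.99e-09). In BC187 the log2 fold changes were 3.76 and 3.31, and in NCYC3290 2.74 and 3.24, at 30 min and 3 h. In BY4743 at 30 min it had 3620, 615 and 563 CPM against 81.2, 79.1 and 62.7 CPM at 0 h (4.25, adjusted p = 1.46e-09), and without replicate 1, which stood apart, the value was 3.02 (adjusted p = 3.32e-11). At 3 h it was 1.93 there. The YPS128 call at 30 min was lost without replicate 2 (1.41, adjusted p = 0.141).

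Of the 9 genes for ubiquitin supply and substrate delivery, 5, 3, 2 and 2 rose at 30 min in BY4743, BC187, NCYC3290 and YPS128 and 2, 1, 0 and 0 fell (of all genes, 33.3, 18.2, 16.5 and 8.50% rose). At 3 h 1, 2, 3 and 5 rose and 2, 1, 1 and 0 fell (of all genes, 23.8, 30.6, 32.4 and 34.1% rose). Of all genes, 29.3, 15.8, 10.8 and 5.94% fell at 30 min and 20.4, 23.9, 27.4 and 29.1% at 3 h. The rising counts of 1 and 2 at 3 h in BY4743 and BC187 were below the rising shares. That of 3 in NCYC3290 was close to its rising share. The UBI4 promoter held the Rpn4 element, as did those of UBA1 and CDC48 in this list, ECM29 among the bound factors and YAP1.

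The list of activators and bound factors had 6 genes, of which 6 rose at 30 min in BY4743 and 6 at 3 h in YPS128 (33.3% and 34.1% of all genes rose there). At 30 min 2 rose and 1 fell in BC187, 3 rose in NCYC3290 and 1 rose in YPS128 (18.2, 16.5 and 8.50% of all genes rose). In BC187 15.8% of all genes fell. SPG5, a proteasome regulator of stationary phase, rose in all 4 strains at both times, with the largest change of the list in YPS128 at 3 h (286, 254 and 223 CPM against 37.6, 62.2 and 28.8 CPM at 0 h; 2.66, adjusted p = 1.51e-10). ECM29, which ties the regulatory to the core particle, rose in all 4 strains at 3 h (0.50, 0.97, 1.38 and 2.63 in BY4743, BC187, NCYC3290 and YPS128). In YPS128 it had 948, 844 and 813 CPM at 3 h against 135, 168 and 143 CPM at 0 h. These ECM29 calls were also made under library totals. BC187 and NCYC3290 each had 4 of the 6 higher at 3 h, and BY4743 had 2 (30.6, 32.4 and 23.8% of all genes).

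Of the 9 assembly factors, 4 rose and 2 fell at 30 min in BY4743, shares near those of all genes (33.3% and 29.3%), and 2, 2 and 1 rose in BC187, NCYC3290 and YPS128 (18.2, 16.5 and 8.50% of all genes). HSM3, a chaperone of the regulatory particle base, rose at 30 min in all 4 (0.76, 0.51, 0.81 and 0.46), but not in YPS128 under library totals (0.34, adjusted p = 0.217). NAS2, another base chaperone, had the largest change (27.5, 26.2 and 26.9 CPM at 30 min in BY4743 against 12.3, 8.04 and 10.4 CPM at 0 h; 1.37, adjusted p = 4.24e-07). At 3 h 1, 3, 1 and 0 assembly factors rose in BY4743, BC187, NCYC3290 and YPS128 and 0, 1, 0 and 0 fell. Of all genes, 23.8 to 34.1% rose there and 20.4 to 29.1% fell. SEM1, a small lid subunit outside the list of 31, fell in BY4743 at 30 min (31.6, 30.8 and 31.9 CPM against 72.2, 44.6 and 65.1 CPM at 0 h; -0.94, adjusted p = 7.68e-05) and rose in BC187 (0.72) and NCYC3290 (0.77). At 3 h SEM1 rose in BC187 (0.435) and NCYC3290 (0.805), and both calls were also made under library totals (0.689 and 1.382). RPN13, a ubiquitin receptor and the other further subunit, fell in BY4743 at both times (-0.40 and -0.36) and in YPS128 at 3 h (-0.57). Its values under library totals were -0.08, -0.22 and 0.19, with no call.

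Of the genes that turn over Rpn4, MUB1, the partner of the ubiquitin ligase Ubr2, changed most. It fell at 30 min in BC187 (-0.79), NCYC3290 (-0.86) and YPS128 (24.0 and 31.2 CPM against 69, 49.7 and 73.6 CPM at 0 h; -1.15, adjusted p = 2.71e-05). In BY4743 it was 0.19 (adjusted p = 0.248). RAD6, the ubiquitin-conjugating enzyme of this step, fell at 3 h in all 4 strains under TMM (-0.44, -0.49, -0.46 and -0.42), but under library totals the values were -0.29, -0.23, 0.12 and 0.35 and none was called (adjusted p = 0.221, 0.322, 0.577 and 0.143). UBR2 was not called at 30 min and rose at 3 h in NCYC3290 and YPS128.

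All 4 of the factors known to act on RPN4 rose at 30 min in BY4743 (median 0.72), against 1 each for BC187 and NCYC3290 and 0 for YPS128 (33.3, 18.2, 16.5 and 8.50% of all genes rose). At 3 h 0, 3, 4 and 4 rose (23.8, 30.6, 32.4 and 34.1% of all genes). HSF1 rose at 30 min in BY4743 (0.95), BC187 (0.78) and NCYC3290 (0.73) and had the largest change of the list in YPS128 at 3 h (69.8, 65.9 and 88.8 CPM against 32.4, 28.3 and 37.7 CPM at 0 h; 1.19, adjusted p = 9.38e-06). PDR1 rose in BY4743 at 30 min (0.84) and in NCYC3290 and YPS128 at 3 h (0.40 and 1). These are mRNA levels, and whether they bear on the level of RPN4 was not tested.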

How the data were processed

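RNA was hot-phenol extracted, depleted of ribosomal RNA and sequenced as strand-marked single reads. The authors trimmed reads (Trimmomatic 0.3), aligned them to S288c R64-1-1 (bwa-mem 0.7.12-r1039) and deposited raw read counts per gene (HT-Seq 0.6.0); the strand and multi-mapping settings are not given in the sources used here. No member overlapped another RefSeq gene. All 35 columns of the count table were matched to samples by name.

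Tests used the deposited counts in edgeR 4.0.16 under R 4.3.3 (filterByExpr, TMM, glmQLFit with robust = TRUE, glmQLFTest) and limma 3.58.1, with Benjamini-Hochberg adjustment within each contrast over all genes tested and a threshold of 0.05. NaCl responses, the change between 30 min and 3 h, and each strain's response minus the mean response came from one fit to 34 libraries (YPS128 replicate 3 at 3 h left out, as in the study's own table; 5997 genes; biological coefficient of variation 15.8%). Unstressed levels came from the 12 libraries of 0 h (5644 genes; 8.50%). The labels list NaCl for the 0 h libraries too; they were taken before it was added. CPM values are from TMM factors over all 35 libraries. All groups share one estimate of the spread, including the 2 libraries of YPS128 at 30 min and the 2 used at 3 h; where leaving out a culture leaves 1 library, it is assumed to vary like the other groups. Responses of the strains are set against a mean that includes the strain itself, and the comparisons of 30 min and 3 h share their 0 h libraries.

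The replicate number was a block, since the strains of a replicate were grown in parallel per the study's methods. Same-numbered libraries deviated together (correlation over 0.1) in 18 of 18 strain pairs at 0 h, 5 of 15 at 30 min and 17 of 18 at 3 h; libraries of the same culture at different times did so in 19 of 34 pairs (-0.45 to 0.51). The main counts with and without the block are in the closing section. Between replicates of a group the chi-square per degree of freedom was 4.18 to 61.1, so all differed by more than sampling noise.

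The members and lists were chosen with earlier results of these data known. RPN4, the highest and lowest subunit of each comparison, subunits called against the majority, the largest called strain difference, PRE9, list genes called in every strain and the largest change of each list were named by rule. Other genes were named after their values were seen. Sequences are from the RefSeq R64 genome. Alternatives were DESeq2 1.42.0 (Wald test, and its size factors), library totals, no filter, no replicate block, culture as block, a separate fit per strain, all 35 libraries, the fit to all time points for unstressed levels, prior counts of 0.5 and 5, and leaving out each culture in turn; leaving out all cultures of replicate 2 was added after seeing the data. The statistics were tested on simulated data.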

Additional observations from a re-analysis of the deposited data

Results flagged for a closer look

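The response of RPN4 or of a subunit differed from the mean response of the 4 strains, by the edgeR test of that difference, in 17 cases. At 30 min they were RPN4 in BY4743 (0.87), BC187 (0.70) and YPS128 (-1.13), PRE1 in BY4743 (-0.77) and YPS128 (0.57), and RPN3 in BY4743 (0.38). At 3 h they were RPN4 (-0.38), RPN1 (-0.31), RPN2 (-0.40) and RPT1 (-0.46) in BY4743, and RPT1 (0.53), RPN1 (0.50), PUP1 (0.45), PRE2 (0.44), RPN3 (0.42), RPN2 (0.39) and RPT3 (0.38) in YPS128. Values are differences in log2 fold change. With 3 libraries or fewer in each group, no test for a library that stands apart was made.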

How the results depend on the processing

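Counts are of the 32 members called, for each strain in the order BY4743, BC187, NCYC3290 and YPS128. In the main analysis they were 9, 3, 2 and 1 at 30 min against 0 h, 15, 10, 11 and 7 at 3 h against 0 h, 16, 12, 11 and 5 at 3 h against 30 min, 3, 1, 0 and 2 for the response at 30 min minus the mean, 4, 0, 0 and 7 for that at 3 h, and 24, 5, 18 and 10 for unstressed levels. Values that moved by over 1.5 times follow. Leaving out 1 culture, or all of replicate 2 (added after seeing the data), gave ranges of 5 to 10, 1 to 1, 1 to 3 and 0 to 1 at 30 min, 3 to 14, 6 to 8, 3 to 8 and 2 to 5 at 3 h, 8 to 22, 5 to 6, 4 to 8 and 2 to 5 at 3 h against 30 min, 3 to 7, 0 to 1, 0 to 1 and 2 to 3 for the 30 min difference, 0 to 2 in BY4743 and 1 to 4 in YPS128 for the 3 h difference, and 14 to 19, 0 to 2, 5 to 17 and 5 to 13 unstressed. BY4743 at 3 h had 3 without its replicate 1 and NCYC3290 3 without its replicate 1.

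Without the replicate block the counts were 5 in BY4743 and 0 in YPS128 at 30 min, 6 in NCYC3290 and 2 in YPS128 at 3 h, 10 in BY4743 and 6 in BC187 at 3 h against 30 min, 1 in BY4743 and 4 in YPS128 for the 3 h difference, and 7, 0, 0 and 1 unstressed. With the culture as replicate block they were 0 in YPS128 at 30 min, 4 in YPS128 at 3 h, and 1 in BY4743 and 4 in YPS128 for the 3 h difference. Separate fits gave 3 (BY4743), 6 (BC187) and 0 (YPS128) at 30 min, 3 (BY4743), 18 (BC187) and 1 (YPS128) at 3 h, and 8 (BY4743), 19 (BC187) and 2 (YPS128) at 3 h against 30 min. DESeq2 gave 2 in YPS128 at 30 min, 5 in BY4743 and 2 in NCYC3290 for the 30 min difference, and 3 in BC187 unstressed. Size factors and no filter each gave 2 in BY4743 for the 3 h difference, and the fit to all time points gave 11, 0, 5 and 2 unstressed. Library totals gave 1 (BC187), 1 (NCYC3290) and 0 (YPS128) at 30 min, 2 (BY4743), 3 (BC187) and 28 (YPS128) at 3 h, 5 (BC187) and 30 (YPS128) at 3 h against 30 min, 10 (BY4743), 0 (BC187) and 1 (YPS128) for the 30 min difference, 17 (BY4743) and 20 (YPS128) for the 3 h difference, and 6 (NCYC3290) and 24 (YPS128) unstressed. The higher and lower calls were 12 and 1 in BY4743 at 30 min and 14 and 0 in NCYC3290 at 3 h under totals, against 5 and 4, and 2 and 9.

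Under library totals 7 called subunits in NCYC3290 at 3 h, 9 in NCYC3290 at 3 h against 30 min, PRE5 in BY4743 at 30 min (0.005) and RPN9 unstressed in YPS128 (-0.006) had the other sign. So did RPN6 in BY4743 at 3 h (0.10), PRE5 in YPS128 at 3 h (0.42), RPN4 in NCYC3290 (0.50) and PRE1 in YPS128 (0.22) at 3 h against 30 min, RPN4 in BC187 for the 3 h difference (-0.14) and RPN4 in NCYC3290 unstressed (0.01). With all 35 libraries the 3 h difference of RPN4 in NCYC3290 was -0.003. With 1 culture left out, the sign turned within these ranges: RPN6 in BY4743 at 3 h (-0.137 to 0.045), RPN5 in BC187 at 3 h (-0.044 to 0.303), RPN4 for the 3 h difference in BC187 (-0.127 to 0.138) and NCYC3290 (-0.03 to 0.074), and RPN4 unstressed in BC187 (-0.091 to 0.006) and NCYC3290 (-0.175 to 0.034). None of these was called. Fewer cultures enter the fits with a culture left out; for the other changes the cause was not tested. The lowest member count was 147. Near such counts, counting error was not small beside the spread between cultures in the unstressed fit (biological coefficient of variation 8.5%).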
